A study of Mus musculus and Homo sapiens with 12 samples.

Results

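The fatty acid elongase genes ELOVL1 to ELOVL7, the fatty acid desaturase genes FADS1 and FADS2 and the stearoyl-CoA desaturase gene SCD were followed in 2 liver metastasis models of pancreatic ductal carcinoma. Genes were taken by symbol from 1 comparison table per model, with mouse SCD read as Scd1 and Scd2. All 10 listed symbols were found. They gave 11 of the 23201 genes of the mouse table and 10 of the 18190 genes of the human table, and all of these had an adjusted p. The study sequenced 12 RNA samples in 4 groups, each with 3 replicates labelled biological. KPC, labelled parental, is a line of mouse pancreatic ductal carcinoma, and KPC LM2 is the liver metastatic line of generation 2 raised from it. PANC1, also labelled parental, is an established cell line from a human pancreatic ductal carcinoma, and PANC1 LM3 is its liver metastatic line of generation 3. Every group carries the label wild type for genotype. Per the labels, 500000 cells were put into the spleen on day 1 in all groups, and liver tumours were taken on day 21. The labels give the tumours as the RNA source, while every library is titled as cells of its line, such as KPC cells. Whether tumour tissue or cells of the line were sequenced was not tested. The labels give neither the strain of the host animals nor which host cells the samples still hold, and each selected line is 1 line.

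Fatty acid elongation takes place in the endoplasmic reticulum, where an ELOVL enzyme joins malonyl-CoA to an acyl-CoA and sets which chains are lengthened. SCD puts the first double bond into saturated acyl-CoAs such as stearoyl-CoA and yields oleate. FADS2 and FADS1 act in turn on the dietary precursors linoleate and alpha-linolenate, with ELOVL5 and ELOVL2 adding carbons between and after them, and the products include arachidonate and docosahexaenoate. The genes of SCD, FADS1, FADS2, ELOVL5 and ELOVL6 are known targets of the lipogenic transcription factor SREBP-1, and hepatocytes of the liver express most of them strongly.

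Each table holds 1 row per gene with a mean level over libraries (baseMean, in normalised counts), a log2 fold change, its standard error (SE) and a Wald test, and no value per library was analysed here. The depth of each sample is therefore unknown, and values for single samples cannot be shown. The numerator of the fold change is not named in the headers. The listed sign is therefore printed, and neither sign stands for a parental or a selected line. A gene is called when its Benjamini-Hochberg adjusted p of the authors' DESeq2 Wald test is under 0.05. Errors after ± are listed SEs on the log2 scale, and they and the p-values measure only the spread between these samples, since the labels do not say how the replicates were kept apart. In bulk RNA, fewer cells of a type and less RNA per cell cannot be told apart.

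The 3 human desaturase genes were all called negative in the PANC1 comparison. FADS2, the enzyme of the first desaturation of linoleate, had the Wald statistic of largest size among the members. In the authors' deposited table it was listed at -2.43 ± 0.07 on the log2 scale, a 5.38-fold difference, with a mean level of 4188 (adjusted p of the Wald test 2.22e-286). By the size of its Wald statistic FADS2 was number 29 of 17838 tested genes of the authors' deposited table, and number 22 of those with a negative value. If both groups weigh equally in the mean, the listed values correspond to levels of about 7063 in one group and 1313 in the other, a computation from the authors' deposited table. SCD, the desaturase of stearoyl-CoA, had the highest count of the members, a value that is not per length. The authors' deposited table gave it a mean level of 29136, number 21 of 18190 genes, and a log2 fold change of -1.04 ± 0.06 (Wald adjusted p 6.05e-78). On the same equal weighting this corresponds to about 39221 and 19052, computed from the authors' deposited table. FADS1, which acts after FADS2 in the same pathway, was listed at -0.68 ± 0.06 in the authors' deposited table, with a mean level of 4956 (Wald adjusted p 1.42e-25). FADS1 and FADS2 thus had the same sign but lay 1.75 apart on the log2 scale in the authors' deposited table, a distance that no rescaling of the libraries changes.

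The elongase genes of PANC1 went both ways. ELOVL5, which lengthens the polyunsaturated products of FADS2, stood with the desaturases at -0.89 ± 0.06 in the authors' deposited table, with a mean level of 5878 (Wald adjusted p 3.68e-43). ELOVL2, which acts on longer polyunsaturated chains, was listed at -0.18 ± 0.07 with a mean level of 1134 in the authors' deposited table (Wald adjusted p 0.029). ELOVL2 was the smallest called value of the family, and its call was lost at an adjusted p under 0.01. It was also lost after recentring on genes at 64 or more (adjusted p 0.083), after subtraction of the level trend (0.15) and with a t distribution (0.14). On the positive side ELOVL6, the elongase of palmitate and of other saturated and monounsaturated chains, was listed at 2.73 ± 0.24 in the authors' deposited table (Wald adjusted p 1.13e-29). Its mean level in the authors' deposited table was 85.2, which under equal weighting corresponds to about 148 and 22.3. ELOVL4, which makes very long chains, was listed at 1.86 ± 0.43 in the authors' deposited table, with a mean level of only 20.8 (Wald adjusted p 4.61e-05). ELOVL7, an elongase of saturated long chains, was at 1.28 ± 0.26 with a mean level of 65.8 in the authors' deposited table (Wald adjusted p 3.58e-06). Neither ELOVL1 nor ELOVL3, 2 further elongases of saturated and monounsaturated chains, was called. The authors' deposited table listed ELOVL1 at 0.05 ± 0.07 with a mean level of 1438 and ELOVL3 at -0.36 ± 0.58 with 9.14. The 95% interval of ELOVL1 ran from -0.08 to 0.17, computed from the authors' deposited table, and that of ELOVL3 from -1.49 to 0.78. ELOVL6 and ELOVL5 lay 3.63 apart on the log2 scale in the authors' deposited table.

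**Figure D1:**
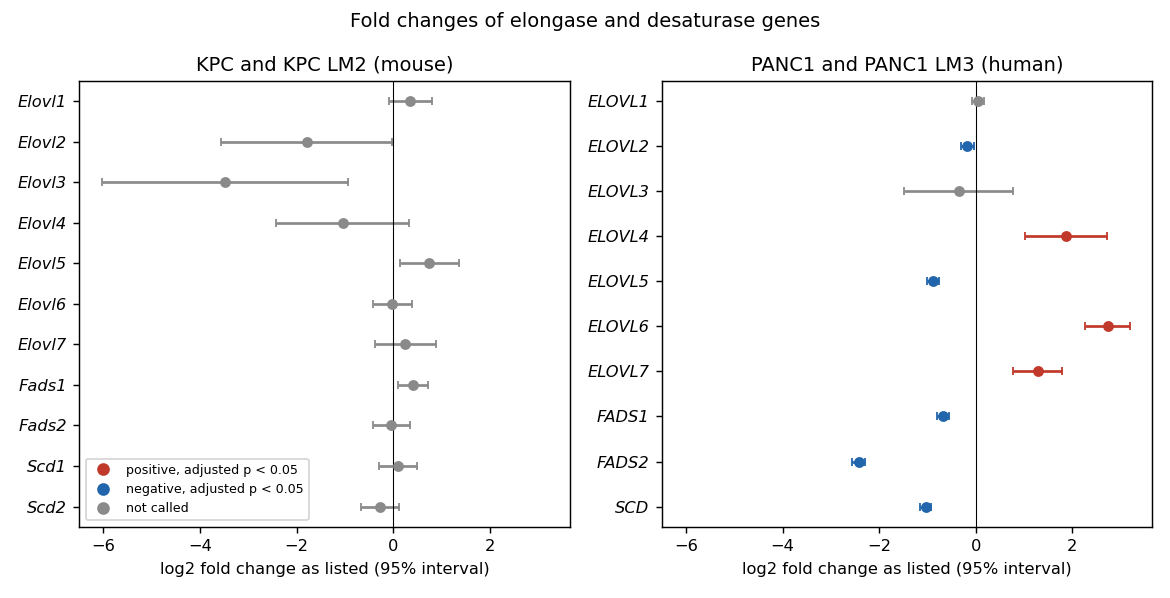
Log2 fold changes of the members as listed (x axis) with 95% intervals, 1 row per gene, for the mouse model on the left and the human model on the right. Red and blue points are called positive and negative genes and grey points are genes not called. In the human panel ELOVL6 is farthest to the right at 2.73 and FADS2 farthest to the left at -2.43, and in the mouse panel no gene is called.

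In all, 8 of the 10 human members were called, 3 positive and 5 negative, against a share of 52.5% of all 17838 genes tested. Positive calls made up 26% of all tested genes and negative calls 26.5%, so that a called member is no rare event in this comparison. The median log2 fold change of the members was -0.27, and that of all tested genes was -0.00198 in the authors' deposited table. The log2 fold change of each member was also placed among genes of like level, those within a factor of 2 of its mean level, as a description. Of such genes, 73.9% to 90.5% were called around the 5 negative members and 37.3% to 56.9% around the 3 positive ones. Below FADS2 lay 0.799% of 1377 such genes, and below ELOVL6 lay 98.2% of 2425, by the log2 fold change of the authors' deposited table. For SCD, 9.52% of 63 such genes had a lower value, and for ELOVL5 10.2% of 879, in the authors' deposited table. ELOVL2 and ELOVL1 lay inside the bulk, at 39.9% of 4420 and 59.3% of 3889 such genes in the authors' deposited table.

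**Figure D2:**
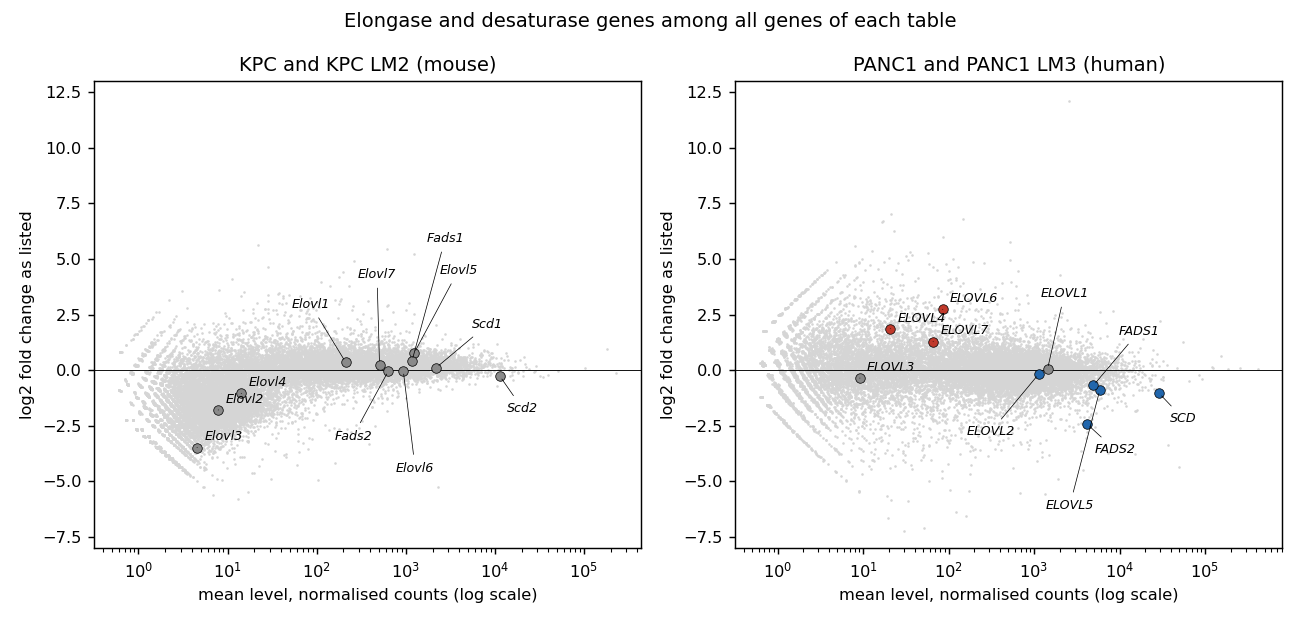
Mean level on a log scale (x axis) against the log2 fold change as listed (y axis) for every gene of each table (light grey), with the members labelled and coloured by call (red positive, blue negative, grey not called). In the human panel the called negative members lie at counts from 1134 to 29136 and the called positive members at counts from 20.8 to 85.2. In the mouse panel the 3 members under a count of 16 lie lowest.

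The 2 signs lay at different counts in PANC1, not corrected for transcript length, as the plot of fold change against level shows. The 5 negative members had mean levels of 1134 or more, and the 3 positive members had 85.2 or less, in the authors' deposited table. The median log2 fold change of genes of like level was 0.08 around ELOVL6 and -0.11 around FADS2 in the authors' deposited table, so that the general trend with level was far smaller than either value. With that trend subtracted, FADS2 stood at -2.31 and ELOVL6 at 2.64, both still called in values recomputed from the authors' deposited table.

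No member was called in the KPC comparison, where 10.4% of 20050 tested genes were (5.77% positive and 4.6% negative). An unadjusted Wald p under 0.05 was listed for 4 of the 11 mouse members. Fads1, the mouse counterpart of FADS1, was at 0.41 ± 0.16 in the authors' deposited table (adjusted p 0.079), with a mean level of 1176. Elovl5 was listed at 0.75 ± 0.31 with a mean level of 1237 in the authors' deposited table (adjusted p 0.096). Of the same 4, Elovl3 and Elovl2 were listed at -3.48 ± 1.30 and -1.79 ± 0.91 in the authors' deposited table (adjusted p 0.062 and 0.18). Their mean levels were 4.54 and 7.86 in the authors' deposited table, close to the detection floor, and Elovl4 was similar at 14.2, with a log2 fold change of -1.05 ± 0.70. Among all mouse genes with a mean level under 16, the median was -1.45 and 89.7% were negative in the authors' deposited table. With the level trend subtracted, Elovl3, Elovl2 and Elovl4 came to -1.89, -0.47 and -0.10, none of them called. Of the alternatives run, Elovl3 passed the threshold only after recentring on genes at 64 or more (-3.70, adjusted p 0.045), which moves every value down by 0.22.

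The 8 mouse members with a mean level of 64 or more lay between -0.27 (Scd2) and 0.75 (Elovl5) on the log2 scale in the authors' deposited table. Scd2 and Scd1, the 2 mouse counterparts of SCD in this rule, were listed at -0.27 ± 0.20 and 0.11 ± 0.20 in the authors' deposited table. Elovl6 was at -0.02 ± 0.21 and Fads2 at -0.03 ± 0.19 in the authors' deposited table. Their 95% intervals, computed from the authors' deposited table, ran from -0.43 to 0.40 for Elovl6 and from -0.42 to 0.35 for Fads2. Elovl1 and Elovl7 were listed at 0.35 ± 0.23 and 0.25 ± 0.32 in the authors' deposited table. After recentring, Scd1 went to -0.11, so the sign of its value depends on the scaling.

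Per kilobase of exons, Scd2 was the leading transcript of the family in the KPC samples. Its mean level of 11392 in the authors' deposited table came to 2085 per kb, against 449 for Scd1. Elovl5 followed at 351 per kb, Fads1 at 244, Fads2 at 194, Elovl6 at 146, Elovl7 at 127 and Elovl1 at 77.7, all computed from the authors' deposited table. The very-long-chain and tissue-restricted members were far lower, with 4.70 per kb for Elovl4, 2.30 for Elovl3 and 1.98 for Elovl2 from the authors' deposited table. The spread of these levels over samples is not shown by the table, so which neighbours in this order differ was not tested. Scd1, Scd2, Scd3 and Scd4 are close relatives that lie next to each other in the RefSeq gene order of mouse chromosome 19, as do Fads3, Fads2 and Fads1. Reads shared between Scd genes could be split among them by the counting, whose settings are not given in the sources used here.

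The start regions of 3 mouse members are shown because their human counterparts hold the largest values of opposite sign (FADS2 and ELOVL6) and the largest negative elongase value (ELOVL5). Each is the 250 bases before the RefSeq gene start in GRCm38.p6, written 5′ to 3′ along the gene. They lie at chr9:77917115-77917364 on the plus strand for Elovl5, at chr3:129532136-129532385 on the plus strand for Elovl6 and at chr19:10101504-10101753 on the minus strand for Fads2. Capitals mark matches on either strand to CCAAT (the NF-Y box), GGGCGG (a GC box) or CACGTG (an E-box), with overlaps allowed.
Elovl5: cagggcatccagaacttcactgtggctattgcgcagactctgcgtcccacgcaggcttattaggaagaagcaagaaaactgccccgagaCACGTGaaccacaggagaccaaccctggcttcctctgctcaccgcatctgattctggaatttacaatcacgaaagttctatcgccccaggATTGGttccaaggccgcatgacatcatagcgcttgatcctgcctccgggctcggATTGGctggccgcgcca
Elovl6: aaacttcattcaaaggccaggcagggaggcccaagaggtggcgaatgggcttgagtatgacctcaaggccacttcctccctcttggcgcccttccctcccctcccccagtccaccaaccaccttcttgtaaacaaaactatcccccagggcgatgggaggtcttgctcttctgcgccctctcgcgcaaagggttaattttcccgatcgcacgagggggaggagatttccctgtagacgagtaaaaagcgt
Fads2: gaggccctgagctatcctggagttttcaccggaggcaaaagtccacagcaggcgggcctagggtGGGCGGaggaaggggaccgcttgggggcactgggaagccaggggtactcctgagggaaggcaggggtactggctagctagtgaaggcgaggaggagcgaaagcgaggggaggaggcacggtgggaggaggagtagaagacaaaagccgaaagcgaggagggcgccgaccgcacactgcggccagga
Elovl5 held 2 CCAAT matches and 1 CACGTG match, Fads2 held 1 GGGCGG match, and Elovl6 held 0 matches. Of 32851 windows of this length in the RefSeq table, 33.8% held CCAAT, 32.7% GGGCGG and 6.02% CACGTG. A window was found for 7 of the 11 mouse members. Of these 7 genes, which had 9 windows, 2 held CCAAT, 5 GGGCGG and 1 CACGTG in any of their windows. These counts are per gene and the shares above are per window, so they are not like measures. These are matches of letters and not sites of binding, and none of the 3 genes was called in the mouse comparison.

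The precision of the fold changes differed between the models. Among genes with a mean level of 64 or more, the median SE was 0.24 in KPC and 0.09 in PANC1 in the authors' deposited tables, a ratio of 2.7. For the members at that level the SE ran from 0.16 to 0.32 in KPC and from 0.06 to 0.26 in PANC1 in the authors' deposited tables. Elovl5 and Elovl7 were the least precise mouse members for their level. Their SEs were 1.49 and 1.43 times the median of genes of like level, at percentiles 96.3 and 94.9 of those genes in the authors' deposited table. Fads1 was the most precise for its level, with 0.769 times that median in the authors' deposited table. In PANC1 the ratio lay between 0.926 for ELOVL3 and 1.19 for ELOVL6 in values from the authors' deposited table.

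**Figure D3:**
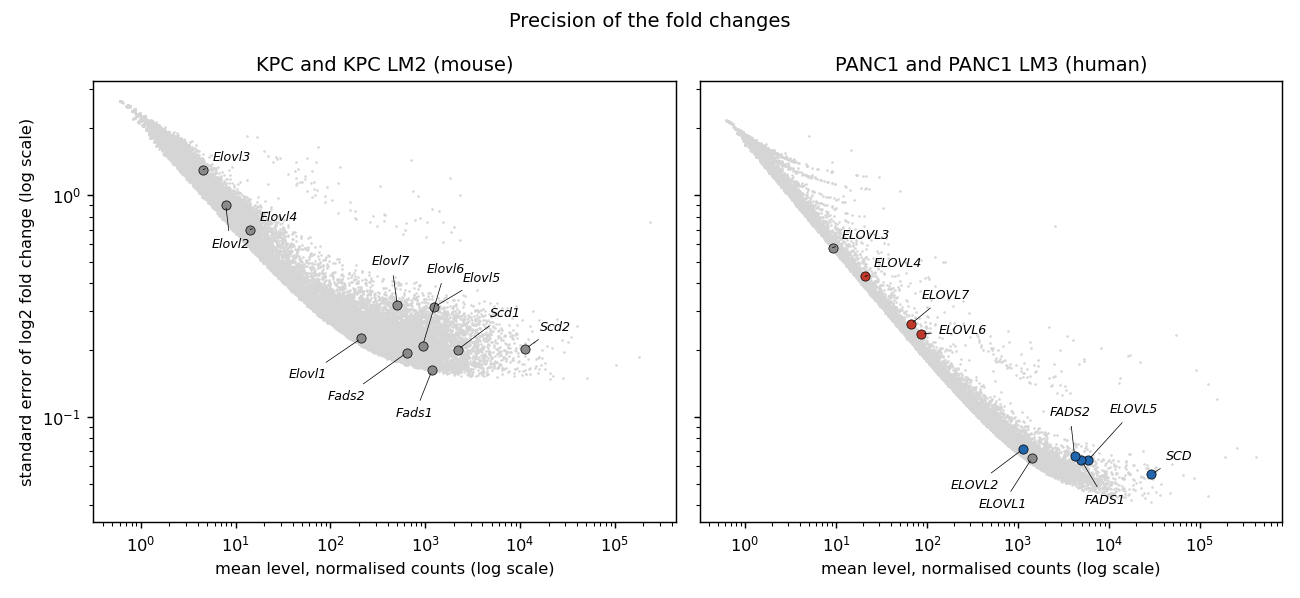
Mean level (x axis) against the SE of the log2 fold change (y axis), both on log scales, for every gene (light grey) and the members (labelled, red positive, blue negative, grey not called). Members at counts of 64 or more sit between 0.16 and 0.32 in the mouse panel, and between 0.06 and 0.26 in the human panel.

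The difference between the models was tested for the 9 members whose symbols match, as PANC1 minus KPC over the combined SE, with adjustment over 12777 matched genes. As listed, 6 of the 9 differed, against 34.9% of matched genes. Because neither table names its numerator, the test was repeated with the sign of the KPC table turned, which was added after the values were seen. In that case 4 of the 9 differed, against 30% of matched genes. Under both readings 3 members differed, FADS2, ELOVL6 and ELOVL7. FADS2 differed by -2.39 ± 0.21 as listed and by -2.46 with the sign turned (adjusted p 1.25e-28 and 2.24e-30 by the Wald test of the difference). ELOVL6 differed by 2.75 ± 0.32 and 2.72 (adjusted p 2.98e-16 and 8.3e-16 by the same Wald test). ELOVL7 differed by 1.03 ± 0.41 and 1.53 (adjusted p 0.04 and 0.0015 by the same Wald test). ELOVL5 and FADS1, called negative in PANC1 and listed positive but not called in KPC, depended on the reading. Their differences were -1.65 ± 0.32 and -1.09 ± 0.17 as listed (Wald adjusted p 3.52e-06 and 9.25e-09), and -0.14 and -0.27 with the sign turned (0.78 and 0.25). ELOVL4 differed as listed (2.91 ± 0.82, Wald adjusted p 0.0022) and not with the sign turned (0.82, 0.49). ELOVL3 differed only with the sign turned (-3.84, Wald adjusted p 0.028), and ELOVL1 and ELOVL2 in neither reading. SCD has 2 mouse counterparts and was left out of this test. Its -1.04 ± 0.06 in the authors' deposited table for PANC1 stands beside -0.27 ± 0.20 for Scd2 and 0.11 ± 0.20 for Scd1 in that for KPC.

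**Figure D4:**
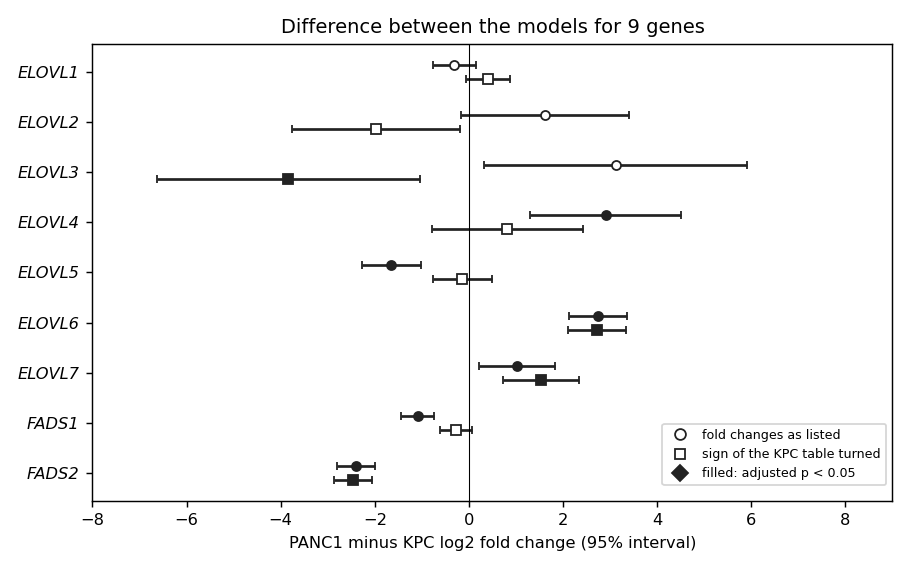
Difference of the log2 fold changes, PANC1 minus KPC (x axis), with 95% intervals for the 9 genes with matching symbols. Circles take both tables as listed, squares turn the sign of the KPC table, and filled symbols have an adjusted p under 0.05. Both symbols are filled and on the same side for ELOVL6, ELOVL7 and FADS2.

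Of the enzymes that feed the elongases, in palmitate and malonyl-CoA synthesis, 5 of 8 tested genes were called negative and 1 positive in PANC1. The shares over all tested genes were 26.5% negative and 26% positive. The median of the list was -0.88 on the log2 scale, beside -0.00198 over all tested genes. The fatty acid synthase gene FASN, whose product makes the palmitate that ELOVL6 lengthens, stood at -1.94 ± 0.18 in the authors' deposited table. The citrate carrier gene SLC25A1 was at -1.11 ± 0.08, the ATP-citrate lyase gene ACLY at -0.88 ± 0.05 and the acetyl-CoA carboxylase gene ACACA at -0.88 ± 0.06 in the authors' deposited table. ACSS2, which makes acetyl-CoA from acetate, was the positive call at 0.76 ± 0.10, and the decarboxylase gene MLYCD was at -0.28 ± 0.18, not called, in the authors' deposited table. ELOVL6 and FASN lay 4.68 apart on the log2 scale in the authors' deposited table. In KPC 0 of 8 tested genes of this list were called by the Wald test (1 with an unadjusted p under 0.05), with Fasn at -0.18 ± 0.22 in the authors' deposited table and a median of -0.16. After recentring 1 was called, Acly at -0.59 (adjusted p 0.0042), a gene named after its value was seen.

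Of 6 tested partner enzymes of the elongation cycle, 4 were called negative and 0 positive in PANC1, where 26.5% and 26% of all tested genes were, and the median was -0.35. The reductase gene TECR, the last step of the cycle, was at -0.95 ± 0.08, and the dehydratase genes HACD2, HACD3 and HACD1 stood at -0.85 ± 0.07, -0.38 ± 0.08 and -0.31 ± 0.11 in the authors' deposited table. HSD17B12, the ketoacyl reductase, was at -0.02 ± 0.06, not called, in the authors' deposited table. None of 7 was called in KPC by the Wald test (2 with an unadjusted p under 0.05), where Hsd17b12 was at 0.06 ± 0.27 in the authors' deposited table.

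Relatives of the desaturases were called on both sides in PANC1, FADS3 and SCD5 positive and DEGS1 and DEGS2 negative. FADS3, the third gene of the FADS family, was at 1.22 ± 0.09 and SCD5, a second stearoyl-CoA desaturase gene, at 1.41 ± 0.29 in the authors' deposited table. FADS3 lay 3.65 above FADS2, and SCD5 lay 2.45 above SCD, on the log2 scale in the authors' deposited table. SCD5 had a mean level of 41.4 in the authors' deposited table. For the ceramide desaturase genes DEGS1 and DEGS2 the authors' deposited table listed -0.60 ± 0.06 and -2.08 ± 0.40. Genes of cytochrome b5 and its reductases were listed with them as electron transfer partners. Whether each of these serves the desaturases was not tested. The authors' deposited table gave CYB5B, CYB5R3, CYB5R2 and CYB5R4 as called at 0.26 ± 0.05, 0.54 ± 0.09, -0.46 ± 0.10 and -0.44 ± 0.09, and CYB5A as not called at 0.05 ± 0.11. Of 10 tested genes of this list 5 were positive and 4 negative, against 26% and 26.5% of all tested genes, with a median of 0.16. In KPC 0 of 12 were called by the Wald test (5 with an unadjusted p under 0.05), with a median of 0.15, and Cyb5b was at 0.20 ± 0.23 in the authors' deposited table. After recentring 1 was called, Fads3 at -0.68 (adjusted p 0.0043), from -0.46 ± 0.18 in the authors' deposited table, a gene named after its value was seen.

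Genes of lipogenic transcription control were mixed in PANC1, with 6 positive and 5 negative of 15, against 26% and 26.5% of all tested genes, and a median of 0.09. SREBF1, which encodes SREBP-1, was at -0.64 ± 0.07, and INSIG1, a retention factor and sterol-regulated target of this pathway, stood at -0.97 ± 0.08 in the authors' deposited table. The escort gene SCAP was at -0.28 ± 0.08, PPARG, a nuclear receptor that binds fatty acids, at -1.02 ± 0.07, and SREBF2 at 0.09 ± 0.07, not called, in the authors' deposited table. MLXIPL, which encodes the glucose-responsive factor ChREBP, was at 1.63 ± 0.25 and its partner gene MLX at 0.44 ± 0.08 in the authors' deposited table. MBTPS2, a protease that releases SREBP, was at 0.56 ± 0.11 and PPARD at 0.47 ± 0.12 in the authors' deposited table. In KPC 1 of 15 was called, the retinoid X receptor gene Rxra at -0.67 ± 0.19 in the authors' deposited table, with Srebf2 at -0.05 ± 0.24 and a list median of 0.18.

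Peroxisomal chain shortening, the last step towards docosahexaenoate, was called negative in 8 of 9 tested genes of PANC1 and positive in 0, against 26.5% and 26% of all tested genes, with a median of -0.78. The carrier protein gene SCP2 was at -0.96 ± 0.06, HSD17B4 at -0.87 ± 0.07 and the transporter gene ABCD3 at -0.83 ± 0.08 in the authors' deposited table. EHHADH was the gene not called, at -0.11 ± 0.14 in the authors' deposited table. In KPC the transporter gene Abcd2 was called at -2.40 ± 0.70 with a mean level of 16.4 in the authors' deposited table, and 9 of 11 were not called. Phospholipid acylation, which places these chains in membranes, had 4 positive and 7 negative calls of 15 in PANC1, against 26% and 26.5% of all tested genes, and a median of -0.06. LPCAT2 was at -2.18 ± 0.08, AGPAT2 at -1.03 ± 0.14, MBOAT2 at -0.94 ± 0.08 and MBOAT7 at -0.52 ± 0.07 in the authors' deposited table. On the other side GPAT2 was at 2.89 ± 0.65 with a mean level of 12.2, AGPAT4 at 1.00 ± 0.09, GPAT3 at 0.82 ± 0.07 and MBOAT1 at 0.39 ± 0.09 in the authors' deposited table. In KPC 2 of 16 were called negative, against 4.6% of all tested genes. Agpat4 was at -0.80 ± 0.27 with a level of 163, and Lpcat2 at -2.12 ± 0.75 with a level of 11.9 (adjusted p 0.048 by the Wald test) in the authors' deposited table. Lpcat2 lies under a level of 16, where 89.7% of all KPC genes were listed negative, with a median of -1.45.

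**Figure D5:**
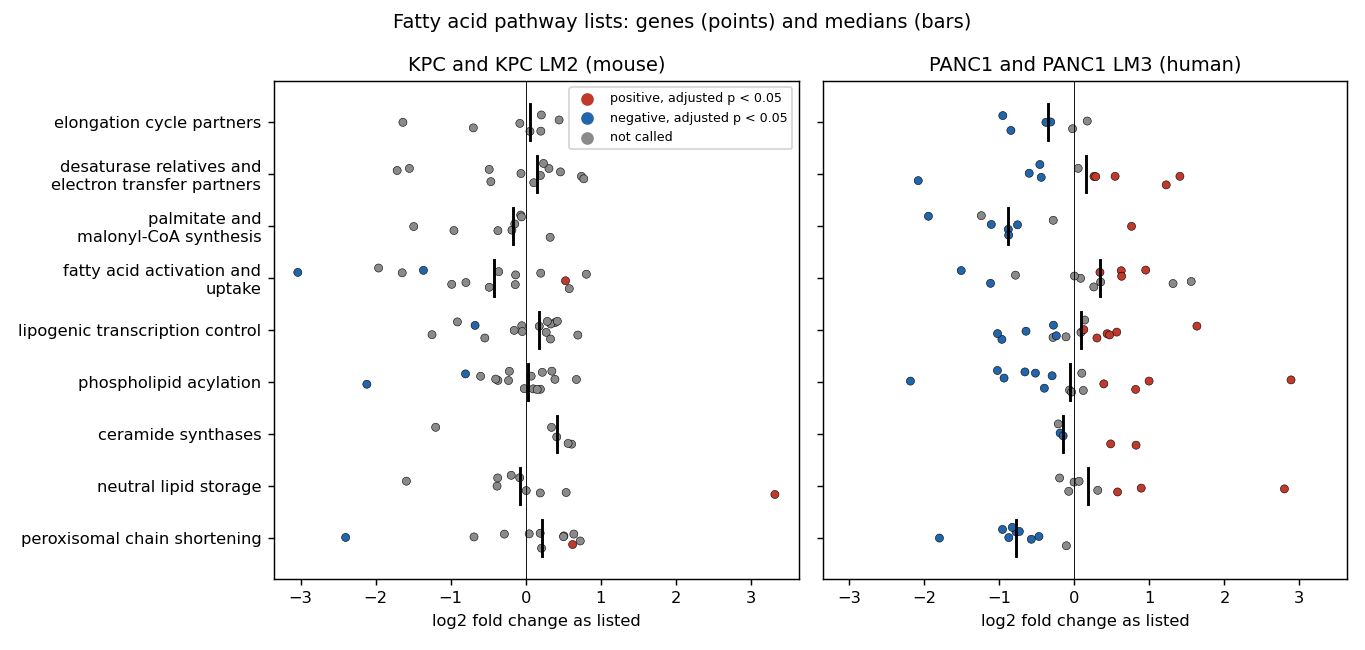
Log2 fold change as listed (x axis) for the tested genes of 9 pathway lists (rows), with the list median as a black bar, in the mouse model (left) and the human model (right). Red and blue points are called positive and negative genes, and grey points are not called. In the human panel 8 of 9 peroxisomal genes and 5 of 8 palmitate synthesis genes are blue.

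Hepatocyte markers, which matter here because hepatocytes express most of these genes, were near the detection floor in KPC. The 10 markers with a row summed to a mean level of 89.4 and ranged from 2.82 to 26.7 (Ttr) in the authors' deposited table, where Alb had 10.4 and Scd1 had 2196. None of the 8 tested was called by the Wald test (4 had an unadjusted p under 0.05), and their median was -1.58, beside the -1.45 of all genes under a level of 16. In PANC1, 5 markers had a row and ranged from 1.41 to 132 (CPS1) in the authors' deposited table, where ALB had no row under that symbol. Of these, CPS1 was called negative at -1.45 ± 0.18 and ASGR1 positive at 2.01 ± 0.53 in the authors' deposited table. Adipocyte markers, which share Fabp4 with the uptake list, ranged from 1.27 to 33.8 (Cidec) over 7 genes in KPC in the authors' deposited table, and in PANC1 only PLIN1 had a row, at 10.02. Leukocyte markers ranged from 1.56 to 33.1, fibroblast markers from 4.27 to 41.4 and endothelial markers from 5.26 to 30.7 in KPC in the authors' deposited table. In PANC1 the highest of these 3 lists were CD68 at 1103, COL3A1 at 405 and STAB2 at 11.8 in the authors' deposited table. Of 5 tested leukocyte markers of PANC1, CD68 was called positive at 1.91 ± 0.07 and ITGAM negative at -0.92 ± 0.34 in the authors' deposited table, while PTPRC had -0.08 ± 1.16 at a level of 2.26. Of 6 fibroblast markers COL3A1 was called positive at 1.05 ± 0.11, with COL1A1 not called at -0.13 ± 0.16, and of 3 endothelial markers CDH5 was called negative at -4.09 ± 0.95 in the authors' deposited table. The calls in these lists for KPC were Adgre1 at -2.88 ± 0.75 of 6 leukocyte markers and Col1a1 at -1.84 ± 0.63 of 8 fibroblast markers in the authors' deposited table, with levels of 13.4 and 19.9. Adgre1 lies under a level of 16, where 89.7% of all KPC genes were listed negative. In KPC 0 of 7 endothelial markers were called by the Wald test (2 with an unadjusted p under 0.05). The PANC1 markers are human genes in samples labelled as tumours grown in host animals, so these markers need not report host cells. The source of their reads was not tested. The part of the markers of either model in the values of the fatty acid genes was also not tested. Nor was it tested whether the low levels of these KPC markers are those of whole liver tumours or of cells, as the libraries are titled. The 7 ductal markers of the labelled tumour type ranged from 464 to 28158 (Krt18) in KPC in the authors' deposited table. In PANC1 they ranged from 45.4 (KRT7) to 49702 (KRT8) in the authors' deposited table. Some of these markers were called in each model. In PANC1 4 of 7 were called negative, among them KRT8 at -4.35 ± 0.06, and 2 positive. The shares over all tested genes were 26.5% and 26%. In KPC Krt7 was called positive at 1.18 ± 0.18 and Epcam negative at -1.14 ± 0.28, in the authors' deposited tables. Of all tested KPC genes 5.77% were called positive and 4.6% negative. The other 5 ductal markers were not called in KPC, among them Krt18 at -0.04 ± 0.15 in the authors' deposited table.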

How the data were processed

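Total RNA from 12 liver tumour samples (3 per group) was made into libraries with a TruSeq kit, per the labels' protocols. DESeq2 1.24, featureCounts 2.0.0, STAR 2.7.6a, MultiQC 1.9 and the builds mm39 and hg19 are named per the submitters' processing notes; their settings, annotation and model design are not given in the sources used here. Per the file headers, each table gives a baseMean, the mean level of the text, read here as the signal the authors computed as counts over size factors. It also gives, as deposited by the authors, a log2 fold change with its SE, a Wald score, and a p-value with its adjusted p-value. The Wald score equalled the fold change over its SE within 9.17e-08, and the deposited p-value its two-sided normal p within 5.0e-08.

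Members and lists were chosen with earlier results of these data known. Counts per library were not analysed here, so the planned count fits were not run, and calls are those of the deposited DESeq2 Wald test, adjusted over 20050 and 17838 genes. Intervals at 95% are the fold change ± 1.96 SE. Named genes were all members and, per list and model, up to 4 called genes per sign with the smallest adjusted p and the most abundant gene not called; 1 gene that the rule selects is not reported here, and markers named for their fold change were chosen after their values were seen. Alternatives were an adjusted p under 0.01, adjustment over every gene with a p, a log2 fold change beyond 1 in size, genes with a level of at least 64, recentring on these, a running median over 501 genes, and a t distribution with 4 degrees of freedom. Exon lengths came from GENCODE M21 and start regions from RefSeq, both of GRCm38 and not of the mm39 that the authors name. Steps were tested on simulated data. Python 3.11.15 was used with scipy 1.17.1, pandas 2.3.3, numpy 2.4.6 and matplotlib 3.10.9.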

Additional observations from a re-analysis of the deposited data

Results flagged for a closer look

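Between the models, 6 members differed in their log2 fold changes as listed, by the test of PANC1 minus KPC over its combined SE. The differences were 2.91 for ELOVL4, -1.65 for ELOVL5, 2.75 for ELOVL6, 1.03 for ELOVL7, -1.09 for FADS1 and -2.39 for FADS2. With the sign of the KPC table turned, the differences of ELOVL6, ELOVL7 and FADS2 were still called, and those of ELOVL4, ELOVL5 and FADS1 were not.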

How the results depend on the processing

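Of 8 PANC1 members called, 7 were called at an adjusted p under 0.01, after recentring, after trend subtraction and with a t distribution, each time without ELOVL2, and 7 among genes at a mean level of 64 or more, where ELOVL4 was not tested. All 8 were called with adjustment over every gene with a p. With an absolute log2 fold change over 1 the count was 5. Of 0 KPC members called (4 with an unadjusted p under 0.05), recentring gave 1. Called KPC genes of the pathway lists, 3 positive and 6 negative, became 1 and 12 after recentring, by a shift of 0.22, and 3 were negative at 64 or more; the cause of these changes beyond the shift and the smaller set was not tested. For the PANC1 lists, the 25 positive and 37 negative calls were 22 and 33 at 64 or more and 25 and 35 after recentring. With the sign of the KPC table turned, the differences of ELOVL1, ELOVL2 and ELOVL3 changed sign, to 0.40, -1.97 and -3.84. Of these, only that of ELOVL3 was then called. The sign changes by construction where the KPC value is larger in size than the PANC1 value. No paired analysis was possible because the tables hold no value per library, and for the same reason leaving out replicates was not run. The depth of the samples is unknown.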

Other observations

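Genes of fatty acid activation and uptake had 4 positive and 2 negative calls of 13 in PANC1, against 26% and 26.5% of all tested genes, with a median of 0.34. The acyl-CoA synthetase genes did not share a sign in the authors' deposited table, with ACSL1 at 0.95 ± 0.09, ACSL4, which favours arachidonate, at 0.62 ± 0.06, ACSL3 at 0.34 ± 0.07 and ACSL5 at -1.51 ± 0.27. The transport protein genes SLC27A4 and SLC27A3 had 0.63 ± 0.09 and -1.12 ± 0.30, and SLC27A1 was at 0.08 ± 0.19, not called, in the authors' deposited table. In KPC, Acsl5 was positive at 0.53 ± 0.19 with a mean level of 5944 in the authors' deposited table, and the fatty acid binding protein gene Fabp5 was negative at -1.36 ± 0.28. The call of Acsl5 was lost after recentring. Slc27a6 was called at -3.04 ± 1.07 with a mean level of 6.61 (Wald adjusted p 0.047), and Acsl4 was not called at 0.20 ± 0.25, in the authors' deposited table. Slc27a6 lies under a level of 16, where 89.7% of all KPC genes were listed negative, with a median of -1.45.

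Neutral lipid storage had 3 positive and 0 negative calls of 8 in PANC1, against 26% and 26.5% of all tested genes. These were the monoacylglycerol lipase gene MGLL at 2.80 ± 0.24, the lipid droplet coat gene PLIN2 at 0.89 ± 0.09 and the triglyceride synthesis gene DGAT2 at 0.58 ± 0.09 in the authors' deposited table. SOAT1, which esterifies cholesterol, was at -0.0038 ± 0.06 in PANC1 and at -0.08 ± 0.18 in KPC, not called in either of the authors' deposited tables. Its relative Soat2 was the 1 call of 9 in KPC, at 3.32 ± 0.52 with a mean level of 41.9 in the authors' deposited table. Among the ceramide synthase genes, the authors' deposited table for PANC1 listed CERS4 and CERS5 at 0.82 ± 0.16 and 0.48 ± 0.09. The same authors' deposited table listed CERS2 and CERS6 at -0.19 ± 0.05 and -0.15 ± 0.07, and the call of CERS6 was lost after recentring. In KPC 0 of 5 ceramide synthase genes were called by the Wald test (2 with an unadjusted p under 0.05), with Cers2 at 0.34 ± 0.21 in the authors' deposited table.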
